A study of Mus musculus with 2 samples.

Results

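The cells described here are islet macrophages, chosen from 2 droplet single-cell libraries by their transcripts. A barcode was taken as a macrophage when it held at least 500 genes and at most 10% mitochondrial UMIs (unique molecular identifiers, each standing for 1 captured RNA molecule). It also had to hold at least 5 UMIs of C1qa, C1qb and C1qc together and at least 1 UMI of Csf1r, Adgre1 or Cd68. Barcodes with any Cd3d, Cd3e or Cd3g UMI, more than 1 Cd79a UMI, more than 9 Jchain UMIs or more than 1 Siglech UMI were left out, which removes barcodes with T cell, B cell, plasma cell or plasmacytoid dendritic cell RNA. The rule found 202 macrophages among 24413 deposited barcodes, 56 from WT NOD and 146 from the library labelled NOD.Cxcl16-/-.

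Both libraries came from hand-picked pancreatic islets of 12-week-old female mice on the NOD background, a strain in which leukocytes enter the islets and autoimmune diabetes develops without further treatment. One group was unmodified NOD and the other was NOD.Cxcl16-/-, a homozygous loss of Cxcl16 on the same background as the genotype is written. Live CD45+ CD31- cells were sorted, so leukocytes were kept and endothelial cells left out, and 3' RNA ends were counted. Each group was 1 library and the number of mice pooled into it is not given in the sources used here. No difference between the libraries can therefore be set against a spread between mice, no p-value is given, and every interval below is a 95% interval that covers counting error only.

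Macrophages are phagocytes that depend on signalling through CSF1R. In the islet they lie beside blood vessels and beta cells, take up secretory granules and present peptides on MHC class II, and in the NOD mouse they are required for the autoimmune process to start. C1QA, C1QB and C1QC are the chains of C1q, the recognition subunit of the classical complement pathway, and are made mainly by macrophages. CXCL16 is a chemokine held on the cell surface that also binds oxidised lipoproteins, and its receptor CXCR6 is carried by effector T cells. CCL2, CCL7, CCL8 and CCL12 attract monocytes, mainly through CCR2, while CXCL9 and CXCL10 attract T cells through CXCR3.

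The Cxcl16 transcript itself was present in macrophages of both libraries, at a lower level in the library labelled NOD.Cxcl16-/-. Its presence there bears on every comparison below. Where 2 values stand together, WT NOD comes first. CPM is the number of UMIs of a gene out of all macrophage UMIs of a library, scaled to 1000000. The gene lies at chr11:70453983-70459984 on the minus strand (GRCm38). In macrophages it stood at 823 CPM (interval 757 to 892) in WT NOD, with a UMI in 55 of 56 cells. In the library labelled NOD.Cxcl16-/- it stood at 534 CPM (503 to 567), with a UMI in 134 of 146 cells. The log2 ratio, here and below the labelled library over WT NOD after 1 CPM was added to each, was -0.62 (-0.77 to -0.48). A 3' tag outside a deleted part of the gene would still be counted, so this level neither checks nor contradicts the label. The second library is called the library labelled NOD.Cxcl16-/- throughout, and no direction is tied to the genotype. B cells held 29.9 and 28.5 CPM of Cxcl16 in WT NOD and the labelled library, and T cells 69.0 and 62.8 CPM, so the macrophage levels were well above those in lymphocytes of the same library. After thinning (below), 69.6% and 59.9% of macrophages held a Cxcl16 UMI, a difference of -9.78 points (-23.1 to 5.31). The log2 ratio was -0.41 in the macrophages without dendritic cell markers described below.

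The libraries held 93553185 and 98681133 UMIs in all, and 12252 and 10214 barcodes passed the gene and mitochondrial filters. Macrophages were 0.457% of these (0.345 to 0.593) in WT NOD and 1.43% (1.21 to 1.68) in the labelled library, a difference of 0.972 points (0.720 to 1.24). These shares follow from the rule and from the sort and are given as a description. Macrophages were deep, with a median of 12883.5 UMIs per cell (2528 to 25577) in WT NOD and 12870 (1063 to 49956) in the labelled library. The medians were close, but 4 of 56 and 22 of 146 cells had under 5000 UMIs, so the labelled library held a larger share of shallow cells. B cells, used below as background, had medians of 4675.5 and 4723.5 UMIs. The libraries shared 45 barcode sequences, none of them a macrophage in both. A doublet caller marked 0 and 1 of the macrophages.

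The Cd3 limit removed most C1q-bearing barcodes. Of the barcodes with at least 5 C1q UMIs and 1 of Csf1r, Adgre1 or Cd68, 233 of 306 in WT NOD and 434 of 607 in the labelled library held a Cd3 UMI, 89 and 187 held more than 1 Cd79a UMI, 23 and 73 more than 9 Jchain UMIs and 21 and 45 more than 1 Siglech UMI. Just inside the C1q threshold lay 1 WT NOD and 8 labelled-library cells with 5 or 6 C1q UMIs, and just outside it 3 and 9 barcodes with 3 or 4 that met every other condition. C1q summed over its 3 genes, on which the cells were chosen, had a median of 71.8 UMIs per 10000 (4.08 to 414) in WT NOD and 166 (2.08 to 426) in the labelled library. The lower quartile was 26.3 in WT NOD and 64.2 in the labelled library. Both libraries thus hold cells across the whole C1q range, with a lower quartile and median per 10000 in WT NOD. Cells with under 10 C1q UMIs numbered 4 of 56 and 10 of 146.

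Marker genes outside the rule were each found in part of the cells, so the label of islet macrophages rests for many cells on the C1q genes by which they were chosen. C1qa stood at 4768 and 6208 CPM in WT NOD and the labelled library, C1qb at 3351 and 4536, and C1qc at 2011 and 2783. Monocytes (barcodes with Ly6c2 and at most 1 C1q UMI) held 14.5 and 3.24 CPM of C1qb and dendritic cells (Cd209a or Clec10a with at most 1 C1q UMI) held 0 and 0 UMIs of it, which their own definition sets. Of the markers outside the rule, Apoe, which carries lipid, was found in 22 of 56 and 99 of 146 cells. Ms4a7, a membrane protein of macrophages, was found in 32 and 111 cells, and Ccl8 in 19 and 53. Ms4a7 was thus the 1 of these 3 markers found in most cells of both libraries, Apoe was found in most cells of the labelled library only, and Ccl8 in 33.9% and 36.3% of cells.

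All 20 genes of a macrophage identity list were measured in these cells. Csf1r, the receptor that sustains macrophages, stood at 279.7 and 213 CPM. Cd68, a lysosomal glycoprotein, stood at 239 and 295 CPM. Both are alternative genes of the rule, with Adgre1, so their presence is in part set by the choice of cells. Fcgr1, the high-affinity IgG receptor, stood at 327 and 472 CPM and Cx3cr1, the fractalkine receptor, at 195 and 247. Lyz2, which encodes lysozyme, was the most abundant of the list at 10617 and 7427 CPM. These levels are UMI counts of 3' ends and are not divided by transcript length, since each molecule gives 1 tag. The plot of single cells shows how widely Apoe and Ccl8 spread compared with C1q.

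**Figure D1:**
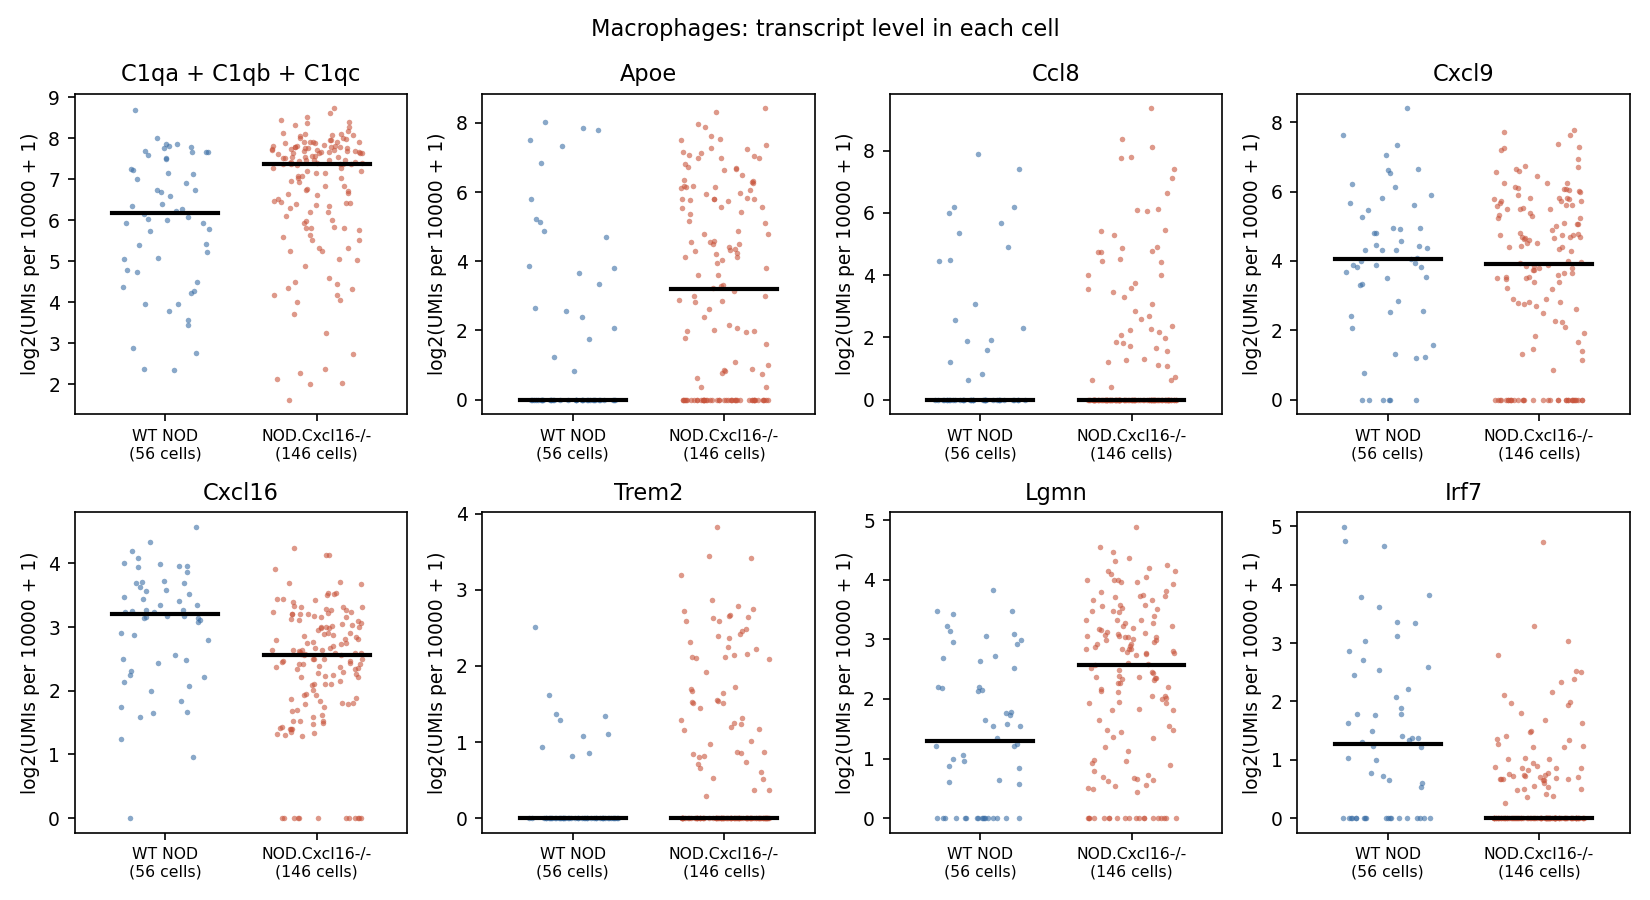
Each point is 1 macrophage (56 in WT NOD, 146 in the library labelled NOD.Cxcl16-/-) and the vertical axis is log2 of UMIs per 10000 plus 1. Bars mark medians. C1q is found in every cell by the rule, Cxcl9 and Cxcl16 in most cells, while the medians of Ccl8 and Trem2 are 0 in both libraries.

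C1qc and Trem2 show the promoters of a gene the cells were chosen by and of a gene that separated the libraries (below). Both contain a match to the core that the macrophage factor PU.1 binds, GAGGAAG on either strand, in the 250 bases before the RefSeq start (GRCm38.p6). The C1qc stretch is chr4:136892915-136893164 on the minus strand and the Trem2 stretch is chr17:48346151-48346400 on the plus strand. Capitals mark the match, which begins 194 bases before the C1qc start and 41 before the Trem2 start.
C1qc: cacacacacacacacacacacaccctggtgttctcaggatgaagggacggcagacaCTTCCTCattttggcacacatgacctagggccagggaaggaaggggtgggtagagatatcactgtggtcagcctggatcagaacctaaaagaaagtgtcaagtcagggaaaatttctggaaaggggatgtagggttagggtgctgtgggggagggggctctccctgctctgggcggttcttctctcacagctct
Trem2: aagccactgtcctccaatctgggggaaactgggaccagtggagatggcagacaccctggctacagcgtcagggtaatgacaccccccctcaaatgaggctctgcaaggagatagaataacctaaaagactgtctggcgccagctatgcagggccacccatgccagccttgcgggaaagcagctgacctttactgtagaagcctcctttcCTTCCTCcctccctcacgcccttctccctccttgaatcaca
In both the letters read as the reverse complement of the core. The same core occurs in 4477 of 32851 RefSeq promoter windows of 300 bases (13.6%), and in 4 of the 14 identity genes that have a window. A match describes letters and does not show binding.

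Transcripts that mark T cells and B cells were at a small part of their level in those cells. The rule leaves out barcodes with a Cd3 UMI or more than 1 Cd79a UMI. The T and B cells were themselves picked by Cd3 and by Cd79a and Ms4a1. The low levels are therefore in part set by the choice of cells and are no check of it. None of 10 T cell genes was measured, and their summed level was 37.6 and 40.4 CPM against 4533 and 4264 CPM in T cells. Of 7 B cell genes 3 were measured, and the 7 summed to 260.2 and 265 CPM against 12015 and 11820 CPM in B cells. The largest part was the immunoglobulin genes Igkc, at 143 and 144 CPM in 36 and 124 cells, and Ighm, at 91.9 and 103 CPM in 28 and 89 cells. Cd79b stood at 20.9 and 14.1 CPM, while Ms4a1, which encodes the B cell antigen CD20, had 0 and 3 UMIs. Mast cell genes (4 of 4) had 0 UMIs in both libraries, and of 5 neutrophil genes S100a8 had 1 and 0 UMIs, S100a9 and Retnlg 0 in both and Mmp8 0 and 1. The fifth, Csf3r, which encodes the G-CSF receptor, had 18 and 35 UMIs (25.1 and 17.1 CPM). Acinar genes were at 0 in WT NOD and at 2.92 CPM summed in the labelled library.

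Dendritic cell genes were present at a lower level than in the dendritic cells, and some macrophages carried several. The 8 genes of that list summed to 319 and 349 CPM in macrophages and 847 and 898 CPM in dendritic cells. The dendritic cells were picked by Cd209a or Clec10a and Cd209a is in the list, so their higher sum is in part set by that choice. Cd209a, the receptor that picked the dendritic cells, had 0 and 1 UMIs. Ccr7, the receptor that guides mature dendritic cells to lymph nodes, had a UMI in 13 and 33 macrophages at 106 and 140 CPM. Fscn1, an actin bundler of mature dendritic cells, stood at 135 and 74.5 CPM in 17 and 22 cells. Flt3, the growth factor receptor of dendritic cells, stood at 9.74 and 36.0 CPM, and Xcr1, which marks cross-presenting dendritic cells, had 2 and 49 UMIs in 2 and 9 cells. Setting aside every macrophage with a UMI of Flt3, Xcr1, Cd209a, Ccr7 or Fscn1 left 33 and 95 cells. Values in these cells are given below for part of the results that they move.

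Most markers of resident macrophages of other tissues were low, and 4 of the 14 listed were measured. Lyve1, Vsig4, Cd209f, Cd209g and Clec4f had 0 UMIs in both libraries, and Cd163, the haemoglobin scavenger receptor, had 1 UMI in each. Folr2, a folate receptor of resident macrophages, had 13 and 10 UMIs in 4 and 4 cells. Timd4, which binds dying cells, stood at 57.1 and 21.9 CPM, and Mrc1, the mannose receptor, at 6.96 and 22.4. A count of 0 allows up to 3 UMIs over the macrophages of a library, which is 4.18 CPM in WT NOD and 1.46 CPM in the labelled library. Of monocyte genes, Chil3 was at 0 in both libraries.

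Set against monocytes, dendritic cells, B cells and T cells of the same library, the 12 genes with the largest difference by the rule for named genes were Gdf15, C1qb, C1qa, C1qc, Ccl8, Cd63, Cxcl13, Apoe, Selenop, Acp5, Fabp5 and Cx3cr1. The C1q genes and the low C1q limit of monocytes and dendritic cells make that part of the ranking a result of the rule. Gdf15, a stress-induced cytokine of the TGF-beta family, stood at 268.6 and 221 CPM, a log2 difference of 4.22 and 4.36 from the highest of the other 4 groups, and was found in 17 and 34 cells. Cd63, a lysosomal and exosomal membrane protein, stood 2.85 and 3.91 above, Selenop, a secreted selenium carrier, 2.78 and 2.55, and Acp5, a lysosomal phosphatase, 2.02 and 2.05. Fabp5, a fatty acid binding protein, stood 1.78 and 1.83 above. These values order the genes in both libraries and carry no test.

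The macrophages transcribed chemokine genes at very different levels. Cxcl2, which attracts neutrophils, stood at 3676 and 5061 CPM and Ccl4, an inflammatory chemokine, at 2878 and 5194. Cxcl9 stood at 3282 and 3183 CPM in 50 and 112 cells, and Cxcl10 at 1163 and 1392. Ccl5, a chemokine of T cells as well, stood at 1587 and 1575 CPM in macrophages and at 4806 and 3472 CPM in T cells, so it was the 1 chemokine of these that T cells held more of. Cxcl16, at 823 and 534 CPM, lay below these and above Ccl2 at 225 and 422 CPM in WT NOD and the labelled library.

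All 4 CCR2 ligand genes had log2 ratios above 0, with a median of 0.78 over the 4, beside -0.04 over all 5596 genes measured (at least 20 UMIs in all and 20 CPM in a library). Of all measured genes 45.8% were above 0 and 54.2% below, 2.38% were at least 2-fold higher and 2.16% at least 2-fold lower, and the counts of each list below are to be read against these shares. Of the 4 only Ccl7 passed 2-fold, at 45.9 and 115 CPM and a log2 ratio of 1.31 (0.80 to 1.90), with UMIs in 4 and 19 cells and 66.7% of the WT NOD UMIs in 1 cell. Ccl2 stood at a log2 ratio of 0.90 (0.66 to 1.16), Ccl12 at 366 and 576 CPM and 0.65 (0.46 to 0.85), and Ccl8 at 1389 and 1928 CPM and 0.47 (0.37 to 0.57). In the cells without dendritic markers Ccl8 stood at 0.05, Ccl7 at 0.56, Ccl2 at 0.59 and Ccl12 at 0.96. After every cell was thinned to 2000 UMIs (56 and 142 cells, 4 shallower cells of the labelled library left out), 21.4% and 26.1% of macrophages held a Ccl8 UMI. That difference of 4.63 points had an interval of -9.37 to 16.3, so a difference in the share of Ccl8 cells was not detectable at this number of cells. Unthinned, the shares were 33.9% and 36.3%, and B cells held 0.725% and 1.03% after thinning. Without dendritic-marker cells the thinned difference was -10.3 points.

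Ccl3 and Ccl4, neighbouring inflammatory chemokine genes, had log2 ratios above 0 without reaching 2-fold. Ccl3 stood at 367 and 719 CPM (log2 ratio 0.97) and was found in 32.1% and 50.7% of thinned macrophages, a difference of 18.6 points (3.20 to 32.0). Ccl4 was found in 57.1% and 74.6%, a difference of 17.5 points (3.15 to 32.0). For Cxcl9 the thinned shares were 80.4% and 71.1%, with an interval of the difference of -20.7 to 4.75 points, and its log2 ratio was -0.04. It was 0.57 in the cells without dendritic markers.

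Cxcl13, which attracts B cells to lymphoid tissue, was carried by few macrophages. Its total stood at 1404 and 336 CPM, but UMIs were in only 8 and 19 cells and 1 cell held 85.1% of the WT NOD UMIs. The log2 ratio of -2.06 became -0.17 without each library's highest cell, and 0.40 without dendritic-marker cells. Pf4, a platelet and macrophage chemokine, was similar, with 63.9% of its WT NOD UMIs in 1 cell, a log2 ratio of -1.73 and -0.71 without the highest cells.

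**Figure D2:**
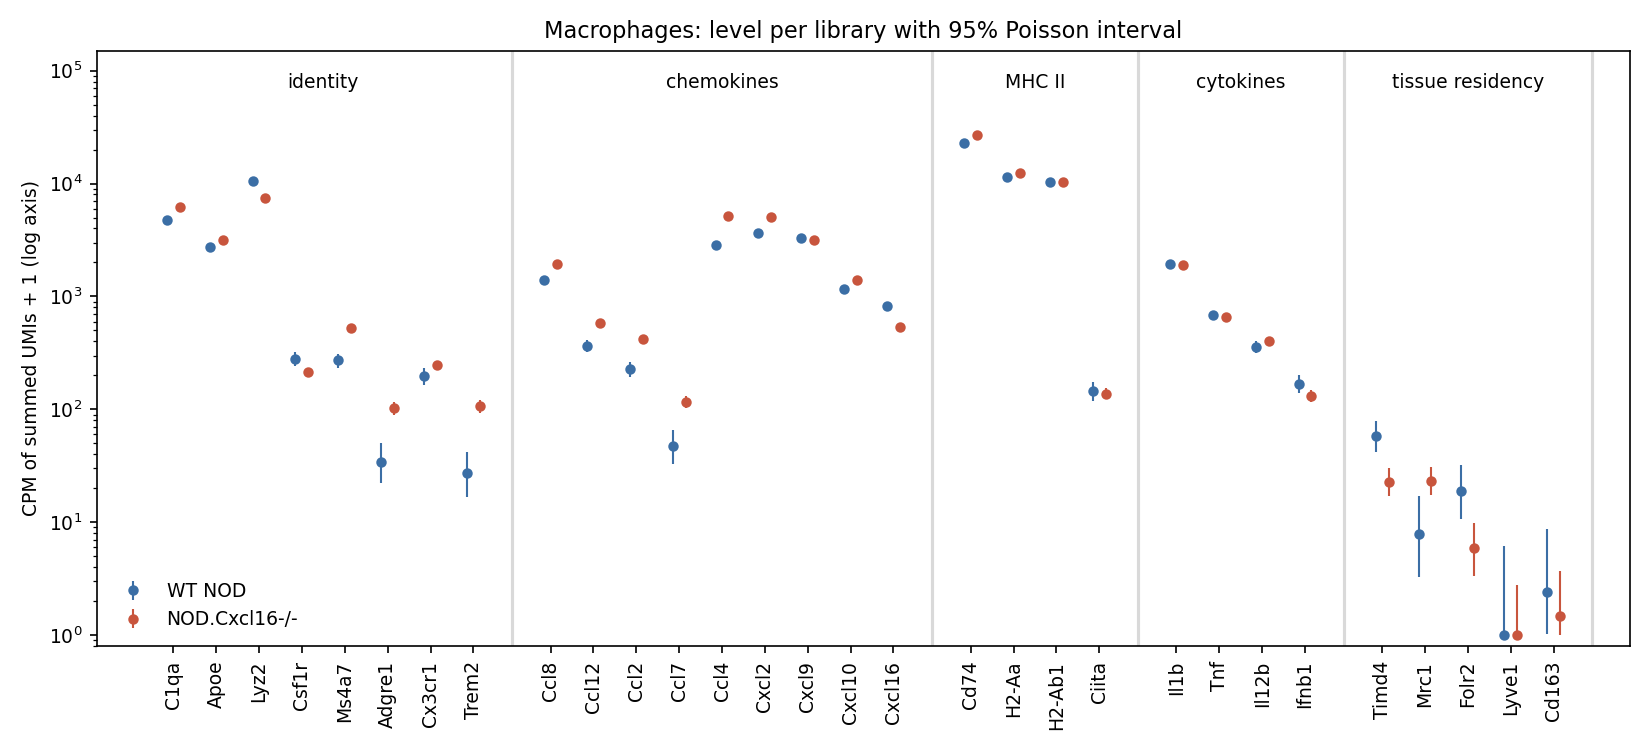
Level in summed macrophage UMIs of each library, as CPM plus 1 on a log axis, for genes grouped by role. Vertical bars are 95% Poisson intervals. The MHC class II genes Cd74 and H2-Aa lie above 10000 CPM in both libraries. The residency markers Lyve1 and Cd163 lie lowest, while Timd4 lies above Trem2 in WT NOD.

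MHC class II genes were among the most abundant and differed little between the libraries. Cd74, the invariant chain, stood at 22862 and 26970 CPM, H2-Aa at 11404 and 12302, and H2-Ab1 at 10247 and 10274. H2-Aa and H2-Ab1 had a UMI in 56 of 56 and 146 of 146 cells. Of 9 measured class II genes none passed 2-fold and the median log2 ratio was 0.08, and B cells held 4967 and 4894 CPM of H2-Aa. Ciita, the class II transactivator, stood at 145 and 137 CPM. The 12 class I pathway genes all had a log2 ratio below 0, as had 54.2% of all genes, with a median of -0.20 beside -0.04 and none past 2-fold. Costimulatory genes differed as little: Cd86, which engages CD28, stood at 504 and 592 CPM, Cd274, which encodes PD-L1, at 436 and 349, and none of 9 measured passed 2-fold.

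Il1b and Tnf, 2 inflammatory cytokine genes, were present in most macrophages at nearly equal levels. Il1b stood at 1930 and 1901 CPM in 47 and 133 cells, and Tnf at 679 and 653 in 47 and 116. Il12b, the shared chain of IL-12 and IL-23, stood at 355 and 402 CPM in 22 and 58 cells. Il1a passed 2-fold, at 58.5 and 128 CPM (1.11; 0.65 to 1.63). Of 17 measured inflammatory genes it was the 1 past 2-fold, with a list median of 0.01. Nos2, which makes nitric oxide, had 1 and 0 UMIs. Ifnb1, which encodes interferon beta, was found in 10 and 43 macrophages at 168 and 130 CPM, with 66.1% of the WT NOD UMIs in 1 cell. Its log2 ratio was -0.37, and 0.97 without each library's highest cell.

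Between the libraries, 133 of the 5596 measured genes were at least 2-fold higher in macrophages of the labelled library (2.38%) and 121 were at least 2-fold lower (2.16%). These counts describe 2 libraries and include genes carried by few cells, and without dendritic-marker cells (33 and 95 cells) they were 245 and 301. Of these, 18 and 16 met the rule for named genes, which asks for 50 CPM in a library, at least 3 times the level of B and T cells and the same direction past 2-fold under each scaling tried. The 12 highest were Dach1, Mmp12, Frmpd4, Plk2, Rcan1, Trem2, Cacna1a, Hmox1, Tanc2, Specc1, C3ar1 and Adgre1. The 12 lowest were Pla2g2d, Cxcl13, Ly6c2, Irf7, Gda, Gm21188, Pf4, Gm36161, Ifna2, Spon1, Ly6i and B930036N10Rik.

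Dach1, a transcriptional regulator, had the largest ratio. It had 1 UMI in WT NOD macrophages (1.39 CPM) and 273 UMIs in the labelled library (133 CPM), spread over 53 cells, a log2 ratio of 5.81 (4.09 to 11.9). After thinning it was found in 0 of 56 cells (interval 0 to 6.38%) and in 16.9% of cells of the labelled library (11.1 to 24.1). T cells held 0.494 and 6.61 CPM of Dach1, so a difference in the same direction was also seen outside macrophages at a level below 10 CPM. The gene spans chr14:97786853-98169765 on the minus strand (GRCm38), and whether reads in introns were counted is not given in the sources used here.

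Trem2, Adgre1 and C3ar1 were also among the named higher genes, though not next in ratio. Each had moderate levels and was found in many cells of the labelled library. Trem2, a receptor for lipids and dying cells, stood at 26.4 CPM in WT NOD (10 of 56 cells) and 106 CPM in the labelled library (63 of 146 cells), a log2 ratio of 1.96 (1.32 to 2.76). It was found in 3.57% and 19.7% of thinned macrophages, a difference of 16.1 points (5.87 to 23.9), and in 0.0725% and 0.114% of B cells. T cells differed in the same direction at a low level, with Trem2 in 0.207% and 0.669%, a difference of 0.461 points (0.218 to 0.736). There C3ar1 was found in 0.155% and 0.497% and Adgre1 in 0.207% and 0.478%, so these differences were not confined to macrophages. Unthinned, the macrophage shares were 17.9% and 43.2%. Adgre1, which encodes the macrophage antigen F4/80 and was 1 of 3 alternative genes in the rule, stood at 33.4 and 101 CPM (1.57; 0.98 to 2.27). C3ar1, the receptor for the complement fragment C3a, stood at 32.0 and 101 CPM in 13 and 70 cells (1.63; 1.04 to 2.35). In cells without dendritic markers Trem2 stood at 2.09, C3ar1 at 1.88 and Adgre1 at 1.53. The 20 genes of the identity list went both ways, with 15 above 0, 5 below and a median of 0.41. Of them 2 were past 2-fold higher (10%, beside 2.38% of all genes) and 1 lower (5%, beside 2.16%), at -1.40. Csf1r and Lyz2, given above, stood lower in the labelled library.

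Lgmn, which encodes a lysosomal protease, went the same way. It stood at 251 and 534 CPM (1.09; 0.86 to 1.33), in 32.1% and 62.7% of thinned cells, a difference of 30.5 points (15.1 to 43.6). In B cells 8.48% and 8.72% held a Lgmn UMI. In T cells 1.78% and 2.60% did, a difference of 0.820 points (0.274 to 1.38) in the same direction. Ms4a7 stood at 270.0 and 528 CPM (0.97; 0.75 to 1.20), and was found in 0.794% and 1.68% of thinned T cells. Of the 19 measured lysosome genes only Lgmn passed 2-fold higher (5.26%, beside 2.38% of all genes) and the median was 0.13, with Ctsb at 0.13, Ctss at 0.16 and Ctsd at -0.41.

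Hmox1, which degrades haem, stood at 37.6 and 132 CPM in 12 and 69 cells, a log2 ratio of 1.78 (1.23 to 2.44). Trf, the iron carrier transferrin, stood at 36.2 and 87.7 CPM (1.25; 0.68 to 1.93). Spic, a transcription factor of iron-recycling macrophages, stood lower in the labelled library, at 62.6 and 30.7 CPM (-1.01; -1.60 to -0.44). Of 9 measured iron genes 2 were past 2-fold higher (beside 2.38% of all genes) and 1 lower (beside 2.16%), with Fth1 and Ftl1, the ferritin chains, at 0.16 and 0.21. Mmp12, macrophage elastase, stood at 5.57 and 60.4 CPM (3.23; 2.05 to 5.34), but in only 2 and 14 cells. Spp1, which encodes osteopontin, had 1 and 63 UMIs in 1 and 14 cells, a ratio of 3.73 on the log2 scale (1.93 to 9.79), below its 50.4 CPM in T cells of the labelled library.

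Among the other named genes that were higher, Plk2, a stress-responsive kinase, stood at 9.74 and 57.5 CPM in 6 and 33 cells (2.44; 1.47 to 3.91). Rcan1, an inhibitor of calcineurin, stood at 13.9 and 71.6 CPM in 9 and 51 cells (2.28; 1.44 to 3.45). Frmpd4, Cacna1a, Tanc2 and Specc1 had log2 ratios of 2.52, 1.80, 1.78 and 1.75. Among those that were lower, Gda, guanine deaminase, stood at 113 and 31.7 CPM in 28 and 38 cells (-1.80; -2.33 to -1.34), and Spon1, a secreted matrix protein, at 91.9 and 31.7 CPM in 26 and 31 cells (-1.51; -2.05 to -1.02). Ifna2, one of a family of near-identical interferon alpha genes that could share reads, had UMIs in 3 and 7 cells, and its log2 ratio of -1.61 became -0.48 without the highest cells. Of these genes Ifna2 was carried by the fewest cells.

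Lipid genes had a median near that of all genes, while 3 of 11 measured scavenger genes passed 2-fold, in both directions. Of 20 measured lipid genes, 2 (Trem2 and Spp1) were past 2-fold higher (beside 2.38% of all genes) and none lower, with a median of 0.09. That median was -0.03 in the cells without dendritic markers. Apoe stood at 2743 and 3175 CPM (0.21; 0.14 to 0.28), yet it was found in 30.4% and 56.3% of thinned cells, a difference of 26.0 points (10.6 to 39.1), and 1 WT NOD cell held 24.5% of that library's Apoe UMIs. B cells held 11.1% and 14.2%. Without dendritic-marker cells the Apoe log2 ratio was -0.12. Of the scavenger genes Mrc1 was past 2-fold higher (1.56) and Timd4 (-1.34) and Mertk (-1.40) past 2-fold lower, each at under 60 CPM, with a list median of -0.25. Fcgr4 (54.3 and 111 CPM, 1.01) was past 2-fold higher and the inhibitory receptor Fcgr2b (146 and 67.7 CPM, -1.10) past 2-fold lower.

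Of 14 listed monocyte genes 6 were measured. All 6 were below 0, as were 54.2% of all genes, and Ly6c2 and Plac8 were past 2-fold lower (2.16% of all genes). The median was -0.69, beside -0.04 over all genes, and -1.75 in the cells without dendritic markers. Lymphocytes also had list medians below 0, at -0.43 over 5 genes measured in B cells (3 below 0) and -0.31 over 6 in T cells (4 below 0). Ly6c2, the antigen of classical monocytes, stood at 107 and 27.3 CPM in 10 and 16 cells (-1.94; -2.50 to -1.46). Its near-identical neighbour Ly6c1 could share reads with it, so its level is uncertain. Plac8 stood at 448 and 162 CPM in 25 and 41 cells (-1.46; -1.70 to -1.24), below the 607 and 450 CPM of B cells. Its thinned shares were 32.1% and 10.6%, a difference of -21.6 points (-35.2 to -9.21). In T cells they were 9.98% and 7.28%, a difference of -2.70 points (-3.74 to -1.65), and in B cells 48.8% and 45.3% (-7.01 to 0.015). Ccr2 stood at 125 and 69.7 CPM (-0.84), S100a4 at 1307 and 897 (-0.54), S100a6 at 1127 and 821 (-0.46) and Ms4a4c at 223 and 156 (-0.51).

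**Figure D3:**
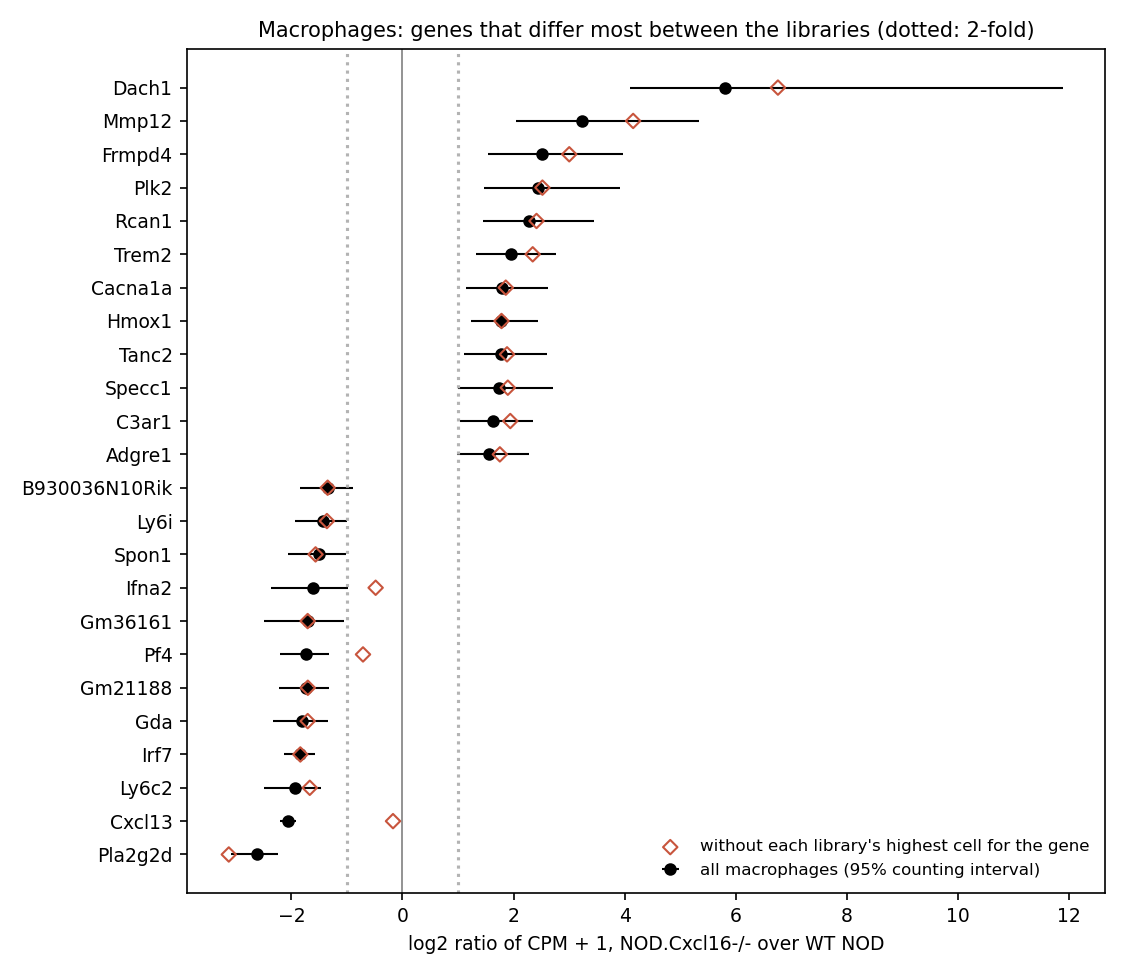
Log2 ratio of the library labelled NOD.Cxcl16-/- over WT NOD for the 24 named genes in summed macrophage UMIs, with 95% counting intervals. Open diamonds leave out each library's cell with the most UMIs of the gene and dotted lines mark 2-fold. Cxcl13, Pf4 and Ifna2 move inside the 2-fold lines without those cells, and the other 21 stay outside.

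Genes that respond to type I interferon mostly had log2 ratios below 0. Interferons alpha and beta act through a complex of transcription factors that binds the interferon-stimulated response element. Of 24 listed genes 22 were measured, 20 were below 0 (90.9%, beside 54.2% of all genes), 5 were past 2-fold lower (22.7%, beside 2.16%) and none higher, with a median of -0.45 beside -0.04 over all genes. The list median was -0.72 in the cells without dendritic markers. The 5 were Irf7, Ifi27l2a, Oas1a, Rtp4 and Ifit3. In the cells without dendritic markers Ifit3 stood at -0.66, Ifi27l2a at -1.03 and Isg15 at 0.21.

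Irf7, a transcription factor that amplifies type I interferon production, stood at 342 CPM in WT NOD (37 of 56 cells) and 94.5 CPM in the labelled library (60 of 146 cells), a log2 ratio of -1.85 (-2.14 to -1.58). Thinned shares were 39.3% and 12.0%, a difference of -27.3 points (-41.1 to -14.0). Irf7 was lower in the other cells too, at -0.92 in B cells, -0.96 in T cells, -1.44 in dendritic cells and -2.42 in monocytes. In macrophages with at least 50 C1q UMIs per 10000 (36 and 117 cells) it stood at -0.90. Ifi27l2a, a mitochondrial interferon-induced protein, stood at 1133 and 380.5 CPM (-1.57), with -1.11 in B cells and -0.76 in T cells. The lower level of both genes was therefore not confined to macrophages.

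Oas1a, which senses double-stranded RNA, stood at 50.1 and 20.5 CPM (-1.25; -1.97 to -0.61) in 22 and 30 cells. Rtp4 stood at 50.1 and 21.9 CPM (-1.16) and Ifit3, which binds viral RNA, at 47.3 and 22.9 (-1.02; -1.71 to -0.37). Other genes of the list did not follow. Isg15, a ubiquitin-like modifier, stood at 454 and 422 CPM (-0.10; -0.29 to 0.08), Ifit1 at -0.09, Ifit2 at -0.08 and Irf9 at 0.20. The list median was -0.18 over 12 genes measured in B cells (9 below 0) and -0.25 over 16 in T cells (10 below 0). Of the interferon gamma list 15 of 18 measured genes were below 0 (83.3%, beside 54.2% of all genes), none was past 2-fold and the median was -0.28. Of that list Gbp2, a guanylate-binding protein, stood at 221 and 224 CPM, and Gbp5 at 196 and 154. The same list had a median of 0.05 in B cells and 0.19 in T cells.

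The promoters of 4 of these genes are shown because they differ in level change and in whether they hold the response element core. They are the 250 bases before the RefSeq start in GRCm38.p6, and capitals mark matches to GAAANNGAAA on either strand, with overlapping matches run together. Ifit3 is chr19:34583279-34583528 on the plus strand, with matches beginning 156 and 122 bases before the start. Oas1a is chr5:120907526-120907775 on the minus strand, with overlapping matches at 20 and 14 bases before the start. Isg15 is chr4:156200819-156201068 on the minus strand, with 3 overlapping matches at 78, 72 and 66 bases before it, and Irf7 is chr7:141266425-141266674 on the minus strand, with none.
Ifit3: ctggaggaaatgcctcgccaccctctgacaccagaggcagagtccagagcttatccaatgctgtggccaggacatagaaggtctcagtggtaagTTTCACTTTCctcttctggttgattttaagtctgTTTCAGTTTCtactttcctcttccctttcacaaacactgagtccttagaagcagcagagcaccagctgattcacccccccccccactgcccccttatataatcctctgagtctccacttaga
Oas1a: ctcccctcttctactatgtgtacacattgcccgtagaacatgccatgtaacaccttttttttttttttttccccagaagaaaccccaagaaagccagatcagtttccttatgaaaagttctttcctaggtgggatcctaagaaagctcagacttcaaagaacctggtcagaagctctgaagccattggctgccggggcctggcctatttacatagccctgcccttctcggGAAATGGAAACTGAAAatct
Isg15: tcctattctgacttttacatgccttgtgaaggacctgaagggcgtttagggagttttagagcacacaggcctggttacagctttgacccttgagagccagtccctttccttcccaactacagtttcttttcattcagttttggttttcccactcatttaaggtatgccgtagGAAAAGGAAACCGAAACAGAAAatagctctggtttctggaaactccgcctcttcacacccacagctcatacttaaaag
Irf7: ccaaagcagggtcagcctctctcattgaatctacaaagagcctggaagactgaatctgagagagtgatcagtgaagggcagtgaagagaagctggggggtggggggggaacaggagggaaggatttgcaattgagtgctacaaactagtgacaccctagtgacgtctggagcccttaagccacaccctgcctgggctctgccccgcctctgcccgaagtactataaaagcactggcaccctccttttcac
The core occurred in 9 of the 16 type I interferon genes with a window, in 8 of 14 interferon gamma genes and in 1131 of 32851 windows of 300 bases (3.44%). The gamma-activated site core TTCNNNGAA, which serves the interferon gamma response, occurred in 3 of the 16, in 5 of the 14 and in 2726 windows (8.30%). Isg15, with 3 matches, stood at a log2 ratio of -0.10 and Irf7, with none, at -1.85. No match says only that the letters are absent from this window.

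**Figure D4:**
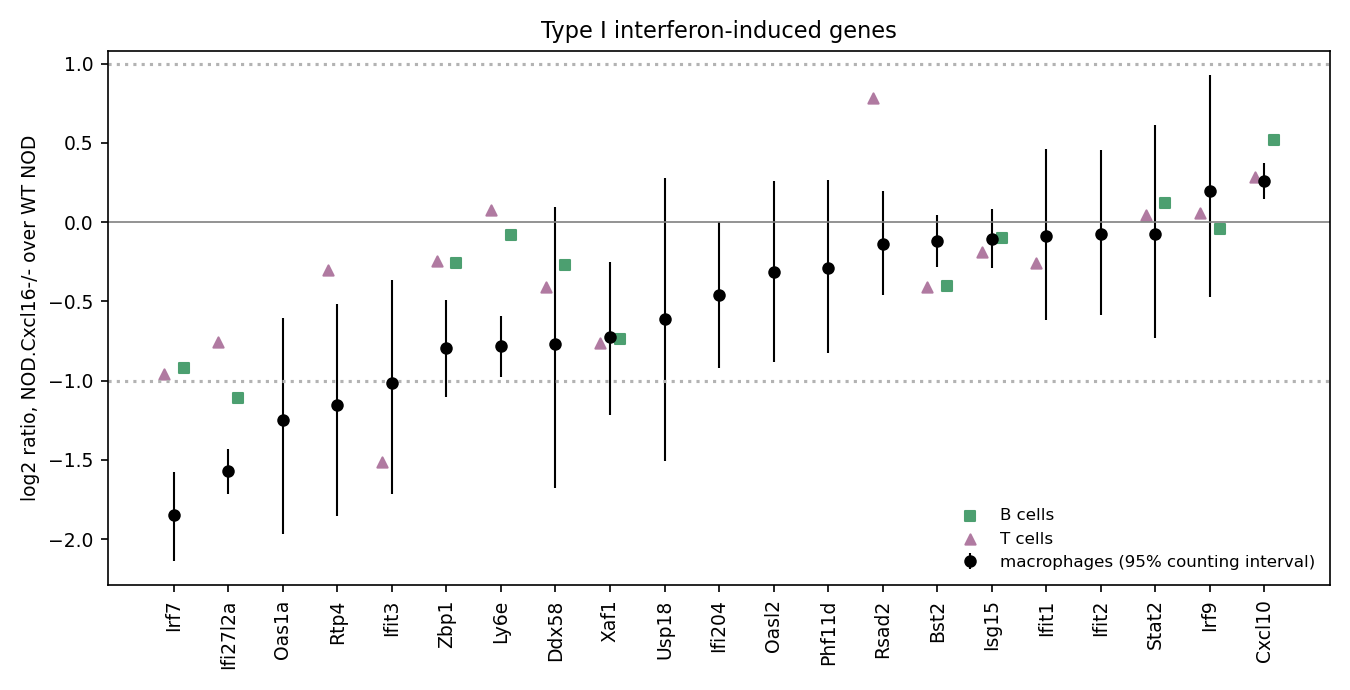
Log2 ratio of the library labelled NOD.Cxcl16-/- over WT NOD for 21 of the 22 measured type I interferon genes in macrophages (points with 95% counting intervals), with B cells (squares) and T cells (triangles) where the gene was measured there. All but Irf9 and Cxcl10 lie below 0 in macrophages, and Irf7 and Ifi27l2a lie below 0 in all 3 cell types.

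Insulin transcripts were found in many macrophages, unevenly. Ins2 stood at 4014 and 4237 CPM, far above the 103 and 97.0 CPM of B cells and 170 and 300.0 CPM of T cells. UMIs were in 25 of 56 and 116 of 146 macrophages, and 1 cell held 60.7% of the WT NOD Ins2 UMIs and 1 cell 29.8% of those of the labelled library. After thinning, 19.6% and 51.4% of macrophages held an Ins2 UMI, a difference of 31.8 points (17.1 to 43.3). B cells held 1.81% and 12.5% and T cells 3.85% and 17.6%, so the share was also larger in lymphocytes of the labelled library. Macrophages were above lymphocytes in both libraries. The 8 endocrine genes summed to 7007 and 6985 CPM, with none at 0. They summed to 4704 and 256 CPM in monocytes (13 and 19 cells) and to 851 and 455 CPM in dendritic cells. In WT NOD the signal was thus not particular to macrophages. The part of free islet RNA in these values was not tested.

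Cycling transcripts differed from gene to gene. Mki67 had a UMI in 31 and 58 macrophages, at 109 and 86.2 CPM. Its thinned shares were 19.6% and 17.6%, beside 6.21% and 6.19% in T cells and 1.31% and 2.62% in B cells. Some other cell cycle genes were low in WT NOD: Top2a had 6 and 61 UMIs, Stmn1 2 and 42, and Cdk1 0 and 20. These are out of 718540 and 2052721 macrophage UMIs. Of 6 measured cell cycle genes 2 were past 2-fold higher (33.3%, beside 2.38% of all genes), none lower and 2 below 0, with a median of 0.38. The list median was 0.62 over 9 genes measured in B cells and -0.28 over 10 in T cells. Transcription factors of the lineage were near equal, with Spi1, which encodes PU.1, at 550 and 516 CPM and Zeb2 at 576 and 573. Of 19 measured factors only Spic passed 2-fold. Igf1, a growth factor of resident macrophages, had 18 and 4 UMIs in 4 and 3 cells.

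Within each library the macrophages were then divided by 1 gene at a time, after thinning, to see which genes went together. The 2 libraries are the only repeat of such a split, and the splitting gene is no result. Ccl8 divided WT NOD into 12 cells with and 44 without a UMI and the labelled library into 37 and 105. Of 1365 genes measured in this split, 15 were at least 2-fold higher in Ccl8 cells of both libraries (1.1%) and 7 at least 2-fold lower in both (0.513%).

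Among the genes higher in Ccl8 cells were Apoe, Selenop, Fabp5, Pf4 and the neighbouring chemokine gene Ccl7. The C1q genes, by which the cells were chosen, were higher in them too. C1qa stood at 9303 CPM with Ccl8 and 3224 without in WT NOD, and at 8004 and 5542 in the labelled library. Cells with and without Ccl8 thus also differed in C1q level, and the part of that in the values of this division was not tested. The lipid list as a whole had 6 of 11 measured genes above 0 in both libraries (54.5%, beside 23.4% of all genes), with medians of 0.27 and 0.09. Apoe stood at 8739 CPM in cells with Ccl8 and 701 without in WT NOD, and at 5260 and 2351 in the labelled library. Selenop stood at 1249 and 44.8 CPM in WT NOD and 449.9 and 203 in the labelled library, and Fabp5 at log2 differences of 2.80 and 2.06. Ccl7, which lies on the same stretch of chromosome 11, stood 3.90 and 2.46 higher, and Gdf15 2.08 and 1.81 higher. Without each library's highest cell for the gene Apoe stood at 3.29 and 1.03, Fabp5 at 2.32 and 1.52, Selenop at 4.45 and 0.95, Ccl7 at 1.82 and 1.74 and Gdf15 at 3.66 and 0.81. Pla2g2d, a secreted phospholipase, stood at 871 CPM with Ccl8 and 0 UMIs without in WT NOD, and at 101 and 9.37 CPM in the labelled library. Pla2g2d was among the genes lower in the labelled library as a whole (221 and 35.1 CPM), but its UMIs were in 4 and 9 cells only, and without the highest cell its log2 difference in the labelled library was 1.04 in place of 3.30.

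The islet hormone genes Ins2, Ins1 and Iapp were also among the 15 genes at least 2-fold higher with Ccl8 in both libraries, and are named after their values were seen. Ins2 stood 2.30 and 1.84 higher, Ins1 2.19 and 1.65 and Iapp 1.95 and 1.35. Single cells held most of this: without each library's highest cell for the gene Ins2 stood at -2.58 in WT NOD and 0.81 in the labelled library, Ins1 at -2.99 and 0.45, and Iapp at -1.26 and 0.37. The part of islet RNA in the Ccl8 division was not tested.

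Ccl8 cells held less of the measured monocyte transcripts. Plac8 stood at 5.48 and 599 CPM and at 83.1 and 191, and Ly6a at log2 differences of -3.61 and -1.17. All 4 monocyte genes measured in the split were below 0 in both libraries, as were 43.3% of all genes. Of 17 lysosome genes 15 were above 0 in both (88.2%, beside 23.4% of all genes), with medians of 1.03 and 0.34 beside -0.19 and -0.04 over all genes. Il1b stood lower with Ccl8, at -2.36 and -0.62, and 8 of 13 inflammatory genes were below 0 in both (61.5%, beside 43.3% of all genes). No dendritic cell list was counted in this division. Ccr7 stood at 0 UMIs with Ccl8 and 142 CPM without in WT NOD, and at 54.2 and 173 CPM in the labelled library, but there at a log2 difference of 0.18 with Cd79a, Jchain and Siglech at 0. Flt3 had 0 UMIs with Ccl8 and 7 without in WT NOD, and stood at 39.7 and 34.8 CPM in the labelled library. Sizes were larger in WT NOD, where only 12 cells carried the gene.

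Over single cells, Apoe and Ccl8 levels went together in both libraries. Spearman's rho over thinned cells, given as a description with cells of a library sharing 1 source, was 0.69 in WT NOD (56 cells) and 0.34 in the labelled library (142 cells) for Apoe and Ccl8. It was 0.64 and 0.30 for C1qa and Ccl8, 0.0012 and 0.23 for Ccl8 and Cxcl9, and 0.20 and 0.08 for Cxcl9 and Cxcl10.

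Cxcl9 divided the cells in another way. It was found in 45 of 56 and 101 of 142 thinned cells, and of 1365 genes 9 were at least 2-fold higher in Cxcl9 cells of both libraries (0.659%) and 7 lower in both (0.513%). Ly6a, an interferon-induced surface protein, stood at 1906 CPM with Cxcl9 and 590 without in WT NOD, and at 1007 and 108 in the labelled library. Zbp1, a sensor of nucleic acids, stood 1.67 and 2.08 higher, Serpina3g, a protease inhibitor, 1.83 and 2.35 higher, and the complement genes C3 and Cfb 1.39 and 2.03 and 1.69 and 1.29 higher. Of 11 interferon gamma genes measured, 9 were above 0 in both libraries (81.8%, beside 33.0% of all genes), with medians of 0.39 and 0.74. Monocyte genes went the same way, with 3 of 4 above 0 in both. Plac8 stood 1.03 and 1.98 higher with Cxcl9. Ly6c2 stood at 127 CPM (77 UMIs) with Cxcl9 and at 0 UMIs without in WT NOD, where only 11 cells were without. Those UMIs were in 10 cells, with 30 of them in 1 cell. Ly6c2 stood 2.63 higher in the labelled library, from 54 UMIs with and 2 without. Ccl8 itself stood at -0.54 in WT NOD and 2.67 in the labelled library, and at 1.56 in WT NOD when cells were thinned to 4000 UMIs. The cholesterol exporter Abca1 stood lower with Cxcl9 (-1.17 and -1.15), as did the adaptor Blnk (-1.45 and -1.36). Without each library's highest cell for the gene they stood at -0.50 and -0.98 and at -0.97 and -1.24.

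Cells with a UMI of Folr2, Cd163, Mrc1 or Lyve1 numbered 5 and 8 after thinning, too few to count genes. In them Ccl8 stood at 6043 against 889 CPM in WT NOD and 10447 against 1433 in the labelled library. The second value rests on 1 cell: without it the other 7 cells held 26 of the 1178 Ccl8 UMIs and stood at 273 against 1433 CPM, the other way round. Without its highest cell WT NOD stood at 4237 against 889 CPM, so only there was Ccl8 higher in the remaining cells. Cx3cr1 stood 1.68 and 1.52 higher, and 1.12 and 1.57 without its highest cells. Il12b stood lower, by log2 differences of -1.92 and -2.39.

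**Figure D5:**
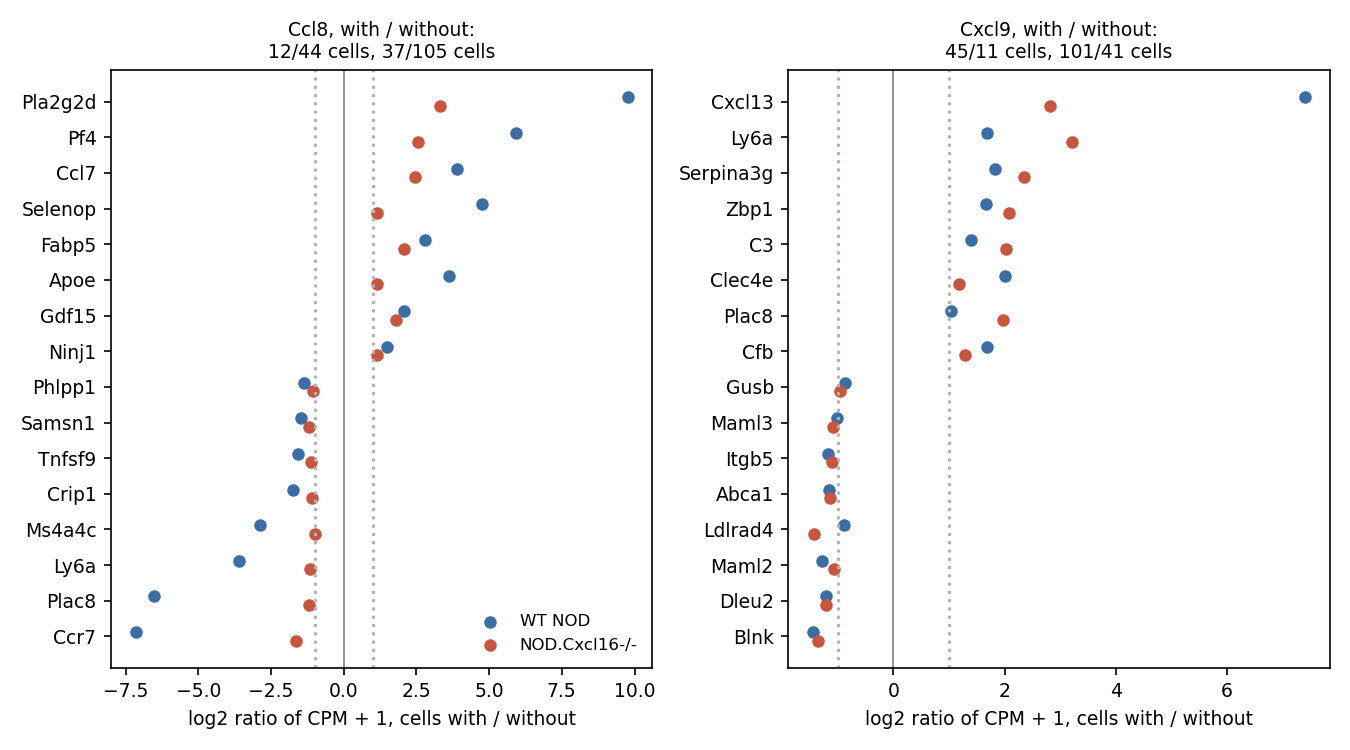
Log2 difference between macrophages with and without the splitting gene (Ccl8 or Cxcl9), for the named genes of each split in each library. A gene at 0 on one side is plotted with 1 CPM added and its length there depends on that addition. Points of both libraries lie on the same side of 0 for each gene shown, which the rule for naming them asks for.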

How the data were processed

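UMI counts per gene and barcode were used as the authors deposited them, 1 filtered matrix per library, with 32285 gene IDs. Cell Ranger 7.0.1 and mm10 are named in the submitters' processing notes. Whether intronic reads were counted, and the annotation, are not given in the sources used here. Members, gene lists and splits were chosen with earlier results of these data known. Macrophage UMIs were summed per library and expressed as CPM. A gene was measured with at least 20 UMIs over both libraries and 20 CPM in a library, and called past 2-fold on log2(CPM + 1). Intervals are exact Poisson, conditional exact, Clopper-Pearson or Newcombe at 95% and cover counting error only, since each group is 1 library. Shares of cells were compared after thinning each cell to 2000 UMIs. Named genes were the 12 highest and 12 lowest ratios with at least 50 CPM, 3 times the B and T cell level and past 2-fold under each scaling, leaving out immunoglobulin, T-cell receptor, mitochondrial, ribosomal, haemoglobin, pancreatic and Xist genes. Against other cells they were the 12 genes with the largest smaller-of-2-libraries log2 ratio over 100 CPM, and in splits 8 each way. Doublets were called with scanpy's Scrublet and not removed. Promoters are RefSeq windows from 250 bases before to 50 after the start. Python 3.11.15, numpy 2.4.6, scipy 1.17.1, pandas 2.3.3, scanpy 1.11.5 and matplotlib 3.10.9 were used, and the ratios were tested on simulated data. Some genes of the lists are counted but not reported here by name.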

Additional observations from a re-analysis of the deposited data

How the results depend on the processing

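No paired analysis was possible because each group is 1 library. Each recomputed value was set against a range, which was the counting interval of the main value, or 1.5 times for a count of genes. A list median has no counting interval, and its range ran between the medians of its genes' bounds. Values without finite bounds were given a fixed range. Changed filters on low genes leave every single-gene ratio as it was, so those values could not move. Over 21 alternatives, 1459 of 1674 values stayed within their range, 209 moved and 6 that had been past 2-fold changed sign. These were Cxcl13, at 0.40 without dendritic-marker cells, Ccr7 in the Ccl8 division of the labelled library, at 0.18 with Cd79a, Jchain and Siglech at 0, and, without the highest cell, Ins1 (-2.99), Ins2 (-2.58) and Iapp (-1.26) in the Ccl8 division of WT NOD and Ccl8 (-2.39) in the residency division of the labelled library. Among the values that had not been past 2-fold, or share differences whose interval held 0, 32 took the other sign, among them Apoe, Isg15, Cxcl9 and the share of Ccl8 cells without dendritic-marker cells. That setting was chosen after seeing the data, as were C1q at 50 per 10000, the 5000 UMI minimum and leaving out the highest cell. The difference in macrophage share was 0.680 points with Cd79a, Jchain and Siglech at 0, 1.28 among barcodes with at least 5000 UMIs and 0.661 without dendritic-marker cells. Cxcl16 stood at -0.41 without dendritic-marker cells. Genes at least 2-fold higher numbered 221 with C1q at 50 per 10000, 245 without dendritic-marker cells, 655 after thinning, 58 with 10 CPM added, 1403 with no filter and 41 at 50 UMIs and 50 CPM. Genes at least 2-fold lower numbered 190 with Cd79a, Jchain and Siglech at 0, 212 with C1q at 50 per 10000, 301 without dendritic-marker cells, 260 as a mean of cell CPM, 691 after thinning, 42 with 10 CPM added, 1305 with no filter and 44 at 50 UMIs and 50 CPM. All 24 named genes stayed past 2-fold in the same direction in 16 of 19 settings, and 23, 23 and 21 did with C1q at 50 per 10000, without dendritic-marker cells and without the highest cell. The scalings among these settings were part of the rule for naming the genes, so they could not fail. The changed filters on low genes leave the ratio of a named gene as it was, so they could not fail either. The type I interferon list median ranged from -0.85 to -0.40. The 56 and 146 cells limit every share, and 1 library per group leaves differences between mice unmeasured.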
